A study of Mus musculus with 21 samples.

Results

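Axon guidance ligands and receptors of 5 families were followed in mouse spiral ganglion neurons (SGNs), the bipolar neurons that carry sound information from cochlear hair cells (HCs) to the brainstem. The 39 genes were named by symbol, with no threshold on their measured levels, and were found by symbol among the 52550 genes of the count table. They comprised 23 ligand genes (14 semaphorins, 3 Slits, the netrin *Ntn1* and 5 ephrin-As) and 16 receptor genes (9 plexins, 2 neuropilins, 2 Robos and the netrin receptors *Dcc*, *Unc5b* and *Unc5c*). SGNs came from *ShhCre/+; Rosa26-CAG-loxp-stop-loxp-tdTomato/+* mice, without tamoxifen, at 5 ages: E15.5 in the embryo, then P1, P8, P14 and, in the adult, P30. HCs came at P12 from *Atoh1-CreER+* mice with the same reporter after tamoxifen at P0 and P1. Glial cells came at P8 from *vGlut3-iCreER/+* mice with the same reporter after tamoxifen at P2 and P3. The strain was given as C57BL/6, every group carried a Cre allele and the tdTomato reporter, and each of the 7 groups held 3 libraries. SGN libraries held 69 to 195 hand-picked tdTomato+ cells and glial libraries 86 to 125. HC libraries held 1200 cells each, were a mixture of cochlear and vestibular HCs, and were sorted by flow cytometry per the study's methods, whereas the labels name manual sorting. The number of animals behind each library was not given in the sources used here, so p-values measure only the spread between these libraries, which may be technical.

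Growing axons steer by cues that attract or repel them. Semaphorins are secreted or membrane-bound cues read by plexins, and most of the secreted class 3 semaphorins also need a neuropilin as co-receptor. Slits repel axons through Robo receptors, netrin attracts through Dcc and repels through Unc5 receptors, and ephrin-As, tethered to the membrane by a lipid anchor, act on EphA receptors of neighbouring cells. In the developing cochlea, SGN peripheral processes grow past glia to HCs before birth and are pruned and matured after it.

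Libraries held 10368240 to 37287489 counts, with a median of 20384100. Levels below are TPM (counts divided by exon length and scaled to a common sum in each library). Fold changes are log2 differences with standard errors from limma-voom on TMM-scaled counts, with Benjamini-Hochberg adjustment over all genes tested. A difference between SGN ages was called at an adjusted p under 0.05 and over 2-fold, and a difference between cell types at an adjusted p under 0.01 and over 4-fold. The summed level of 12 SGN markers was 1200 to 11000 TPM in SGNs, 485 to 511 in HCs and 39.4 to 416 in glial cells. Markers of HCs summed to 5750 to 7040 TPM in HCs and of glia to 8070 to 11200 in glial cells, while the HC libraries also held 757 to 841 TPM of supporting-cell markers. A few libraries stood apart. P1 replicate 1 held 110 TPM of endothelial and pericyte markers, against at most 19.9 in the other SGN libraries. P14 replicate 1 held 815 TPM of HC markers, the highest of the SGN libraries, and 1260 of glial markers. P8 replicates 1 and 2 held more glial markers, at 1700 and 1740 TPM. P14 replicate 2 was low for most members, E15.5 replicate 2 had the lowest SGN marker sum, and glia replicate 1 held the 416 TPM of SGN markers. In bulk libraries, fewer cells of a type and less RNA per cell cannot be told apart.

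In SGNs, guidance genes were called between neighbouring ages up to P8 and not after it, when few of all genes tested were called either. Of the 37 members tested across ages (*Ntn1* and *Efna4* did not pass the filter on low counts), 23 differed among the 5 ages, or 62.2%, against 34.1% of all genes tested. From E15.5 to P30, 7 members rose and 11 fell, where 18.4% of all genes rose and 16.2% fell. From E15.5 to P1, 3 members rose and 6 fell (5.08% and 3.18% of all genes), and from P1 to P8, 3 rose and 5 fell (4.29% and 3.15%). No member was called from P8 to P14, where 0.251% of all genes rose and 0.285% fell, or from P14 to P30, where 0.0331% rose and 0.0265% fell. The median change of the members tested from E15.5 to P30 was -0.70 on the log2 scale, against -0.01 over all genes. It was -1.60 over the 16 receptors and -0.62 over the 21 ligands tested.

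The directions depended in part on the scaling. The scale factors of the TPM and TMM scales differed on average, on the log2 scale, by 0.50 from E15.5 to P1, by -0.43 from P1 to P8 and by -0.16 from E15.5 to P30, and the changes of single genes moved by about these amounts. On the TPM scale, tried after the data had been seen, 3 members rose and 0 fell from E15.5 to P1, 1 rose and 3 fell from P1 to P8, and 5 rose and 11 fell from E15.5 to P30. Scaled by library size only, 2 rose and 7 fell from E15.5 to P1, and 5 rose and 16 fell from E15.5 to P30. No called member changed direction under either scaling.

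Among the ligands, *Sema7a*, the one semaphorin held in the membrane by a lipid anchor and a promoter of axon growth, had the highest mean level of the members in SGNs from P8 on. Its 3 libraries held 32.8, 9.92 and 29.4 TPM at E15.5, 56.7, 78.8 and 98.5 at P1, 111, 294 and 131 at P8, 234, 156 and 338 at P14, and 117, 290 and 147 at P30. All libraries from P8 on lay above all those at E15.5 and P1. *Sema7a* rose by 3.16 ± 0.36 (log2, SE) from E15.5 to P30 (limma-voom, adjusted p = 4.2e-06), and stayed between 2.87 and 3.45 when any 1 library was left out. The rise came in steps of 1.36 ± 0.38 to P1 (adjusted p = 0.031) and 1.53 ± 0.28 to P8 (adjusted p = 0.0022). The first step was lost without E15.5 replicate 2 (adjusted p = 0.093), E15.5 replicate 3 (0.063), P1 replicate 2 (0.11) or P1 replicate 3 (0.067), and the second on the TPM scale (1.09, adjusted p = 0.32).

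*Sema6a*, a transmembrane cue for A-type plexins, went the other way. Its libraries held 85.7, 34 and 113 TPM at E15.5, 72.6, 52.7 and 58.3 at P1, 12.3, 15.1 and 8.29 at P8, 17.1, 6.25 and 8.49 at P14, and 9.08, 9.64 and 2.7 at P30. Every library at E15.5 and P1 lay above every later one. *Sema6a* fell by 1.98 ± 0.30 from P1 to P8 (limma-voom, adjusted p = 0.00042) and by 3.26 ± 0.34 from E15.5 to P30 (adjusted p = 1.8e-06). Its relative *Sema6c* fell by 2.26 ± 0.68 from E15.5 to P30 (adjusted p = 0.014), from 2.82, 5.53 and 20.4 TPM to 1.95, 1.15 and 0.984. The fall of *Sema6c* was 2.87 without E15.5 replicate 1 and 1.68 without replicate 3, and it held without each library. *Sema6c* was also called in the test across all ages, but that call was lost in 13 of the 15 fits that left out 1 library.

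The secreted class 3 semaphorins did not move as 1 group. *Sema3a*, a repellent read through neuropilin-1, held 34.4, 7.32 and 36.5 TPM at E15.5 and 5.92, 7.4 and 6.34 at P30. The ranges overlapped through E15.5 replicate 2, and *Sema3a* fell by 1.51 ± 0.33 (limma-voom, adjusted p = 0.0017). Part of the fall was called by P1 (1.13 ± 0.31 lower on the log2 scale, adjusted p = 0.027), but that call was lost without E15.5 replicate 1 or 3 or any 1 of the P1 libraries (adjusted p from 0.06 to 0.1). *Sema3f*, which acts through neuropilin-2, rose from 2.83, 1.97 and 1.84 TPM at E15.5 to 9.01, 8.57 and 9.51 at P30, by 2.23 ± 0.67 (adjusted p = 0.014; 0.064 without E15.5 replicate 3). *Sema3e*, the ligand of plexin-D1, was high at all ages, with means of 41.2 ± 26.7 (SD, n = 3) TPM at E15.5 and 87.9 ± 16.3 at P1, a difference of 0.90 ± 0.26 that passed on p (0.038) and not on fold. *Sema3d* was called across the 5 ages (adjusted p = 0.045) with a highest group mean of 5.89 ± 3.36 TPM at P8. That call was lost in 12 of the 15 fits that left out 1 library. *Sema3c* stayed at or under 4.22 TPM in every SGN library and was not called.

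*Sema5a* and *Sema5b* are transmembrane semaphorins with thrombospondin repeats. *Sema5a* peaked at P8: it held 3.32, 3.38 and 4.38 TPM at P1, 22.6, 26.8 and 10.6 at P8, 22.3, 4.49 and 2.8 at P14, and 4.08, 1.62 and 0.272 at P30. The P1 and P8 libraries did not overlap, and the rise between them was 2.79 ± 0.56 (limma-voom, adjusted p = 0.0038). The later decline (-1.51 ± 0.49 to P14, adjusted p = 0.19) was not called. The same P8 libraries held 15.7% (range 10.3% to 18.5%) of the glial marker sum of glial cells, against 2.39% at P1, and a mean *Sema5a* level at 92.2% of that of glial cells. The part of glial RNA in the rise was not tested.

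*Sema5b* rose by 4.04 ± 1.22 from E15.5 to P30 (limma-voom, adjusted p = 0.014), from 0.175, 3.21 and 0.198 TPM to 7.2, 6.7 and 10. The size of this rise rested on E15.5 replicate 2, the library with the lowest SGN marker sum: it was 5.77 without that library and 2.99 without E15.5 replicate 3, where the call was lost (adjusted p = 0.082). *Sema6d*, a ligand of plexin-A1, fell by 1.44 ± 0.39 from E15.5 to P1 (adjusted p = 0.025), from 12.3, 9.35 and 12.8 TPM to 11.4, 3.65 and 4.07. The fall was 2.16 without P1 replicate 1, and the call was lost without E15.5 replicate 2 (adjusted p = 0.06), P1 replicate 2 (0.097) or P1 replicate 3 (0.09). *Sema6d* was also called in the test across all ages, but that call was lost in 8 of the 15 fits that left out 1 library. *Sema4d*, the ligand of plexin-B1, *Sema4f* and *Sema6b* were not called at any age. Their SGN group means ran from 6.06 to 12.6 TPM, from 9.61 to 21.2 TPM and from 7.35 to 11.2 TPM.

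Plexins, the semaphorin receptors, changed in opposite directions. The 9 plexin genes summed to 161 ± 41.4 TPM (SD, n = 3) at E15.5, 223 ± 41 at P1 and 125 ± 18.6 at P30. From E15.5 to P30, *Plxna2*, *Plxna4* and *Plxnc1* rose, *Plxna3*, *Plxnb1* and *Plxnb2* fell, and *Plxna1*, *Plxnb3* and *Plxnd1* were not called. *Plxna3* and *Plxnb1* gave 19.4% and 21.5% of summed plexin TPM at E15.5 and 0.676% and 0.572% at P30. *Plxna4* went from 17.9% ± 3.69 to 49.5% ± 1.27, and *Plxnc1* from 4.11% to 18.8% ± 2.05.

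**Figure D1:**
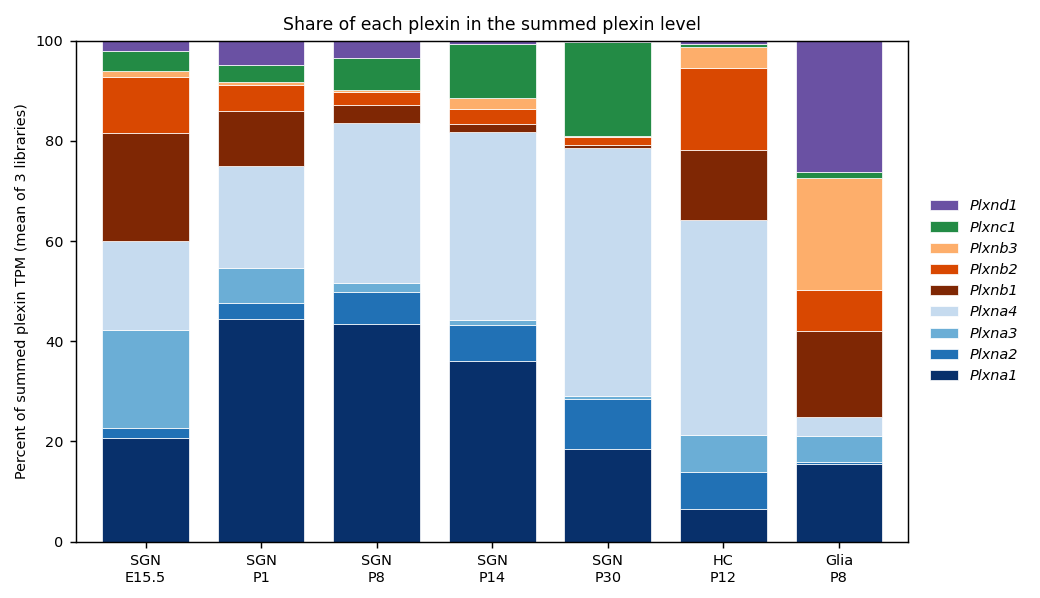
Share of summed plexin TPM (y axis, percent) taken by each of the 9 plexins in each group (x axis, SGNs by age, HCs and glial cells; each bar segment is the mean of 3 libraries). Plxna1 is the largest segment at P1 with 44.5%, Plxna4 at P30 with 49.5%, and Plxnd1 and Plxnb3 take 26.3% and 22.5% in glial cells.

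*Plxna3*, a receptor for class 3 semaphorins together with neuropilins, was called in both steps up to P8. Its libraries held 39.6, 17 and 39.8 TPM at E15.5, 10.9, 12.6 and 23.6 at P1, 3.09, 4.31 and 1.77 at P8, 2.21, 0.631 and 3.56 at P14, and 1.15, 1.04 and 0.422 at P30. The P8, P14 and P30 libraries all lay below every E15.5 and P1 library. *Plxna3* fell by 1.53 ± 0.20 to P1 (limma-voom, adjusted p = 0.00026), by a further 1.90 ± 0.28 to P8 (adjusted p = 0.00032) and by 4.99 ± 0.42 from E15.5 to P30 (adjusted p = 1.9e-07). On the TPM scale the first of these steps was not called (-1.02, adjusted p = 0.26).

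*Plxnb1*, the receptor of Sema4d, held 37.7, 23.6 and 43.3 TPM at E15.5, 28.5, 17.1 and 29 at P1, 9.82, 3.61 and 3.28 at P8, and 1.38, 0.666 and 0.193 at P30. It fell by 1.88 ± 0.39 from P1 to P8 (limma-voom, adjusted p = 0.0051) and by 5.58 ± 0.79 from E15.5 to P30 (adjusted p = 3.9e-05). The P1 to P8 fall was 2.50 without P8 replicate 1 and 1.33 without P8 replicate 2. That call held without each library, but was lost with edgeR and with DESeq2. The E15.5 to P30 fall was 6.41 without P30 replicate 1, the highest of its group, and 5.05 without P30 replicate 3. *Plxnb2*, a second B-type plexin, fell by 3.04 ± 0.64 from E15.5 to P30 (adjusted p = 0.0013), from 21.8, 12.4 and 19.1 TPM to 2.27, 1.76 and 1.47. *Plxnb3* stayed at or under 2.31 TPM in SGNs apart from 12.2 in P14 replicate 1, and *Plxnd1* at or under 7.31 apart from 25.2 in P1 replicate 1. These are the libraries with raised HC and glial markers and with raised endothelial markers, and what those cells gave to the 2 levels was not tested.

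Among the plexins that rose, *Plxna2* held 3.01, 1.58 and 5.94 TPM at E15.5 and 11.7, 14.2 and 11.5 at P30, a rise of 2.17 ± 0.33 (limma-voom, adjusted p = 8.2e-05). *Plxnc1*, the receptor of Sema7a, held 7.1, 4.44 and 8.44 TPM at E15.5, 6.85, 4.73 and 12.9 at P1, 11.3, 13.8 and 6.57 at P8, 19.9, 4.06 and 43 at P14, and 24.1, 23.8 and 21.9 at P30. The E15.5 and P30 libraries did not overlap, and *Plxnc1* rose by 2.01 ± 0.39 (adjusted p = 0.00064). Ligand and receptor were thus both higher at P30 than at E15.5, but *Sema7a* had its called steps before P8 and *Plxnc1* had none between neighbouring ages. *Plxna4*, a co-receptor for class 3 semaphorins, rose by 1.32 ± 0.19 (adjusted p = 3.9e-05), from 31.7, 24.5 and 27.1 TPM to 65.2, 68 and 52.8. On the TPM scale its difference was 1.16 and not called (adjusted p = 0.072).

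*Plxna1*, a receptor of Sema6d and, with neuropilins, of Sema3a, rose to P1 and was lower again at P30. It held 35, 22.2 and 43.6 TPM at E15.5, 90.6, 95.3 and 108 at P1, 58.5, 112 and 46.8 at P8, 68.8, 36.5 and 69.5 at P14, and 22.8, 31.6 and 16.5 at P30. The rise to P1 was 1.09 ± 0.16 (limma-voom, adjusted p = 5e-04), and 0.95, under the 2-fold limit, without P1 replicate 2. The P14 to P30 difference was -0.97 ± 0.17, which passed on p (0.034) and not on fold. From E15.5 to P30 the difference was -0.35 ± 0.17 (adjusted p = 0.11).

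**Figure D2:**
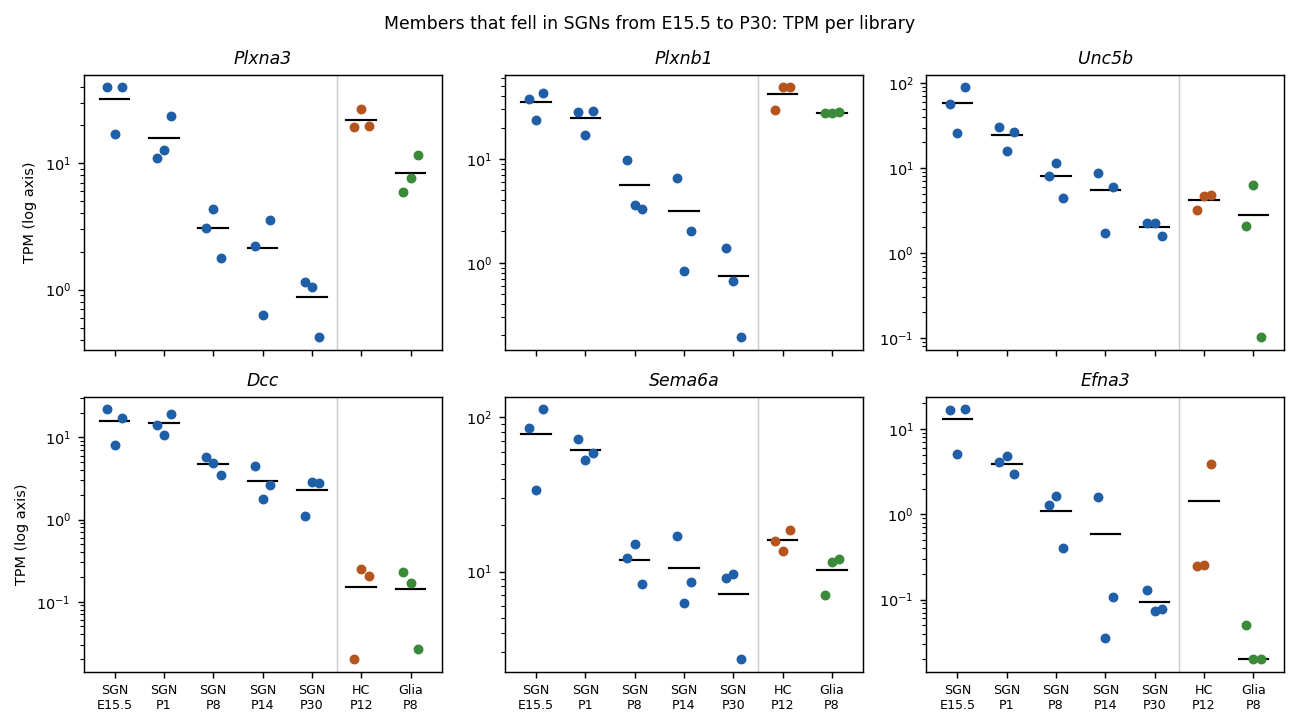
TPM per library (y axis, log scale) of 6 members that fell in SGNs from E15.5 to P30, by group (x axis); dots are libraries, black lines are means of 3, and values under 0.02 TPM, including 0, are drawn at 0.02. Plxna3 goes from 17 to 39.8 TPM at E15.5 to 0.422 to 1.15 at P30, and Dcc lies at or under 0.252 TPM in every HC and glial library.

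The sequences upstream of a ligand that rose and of 2 receptors that fell are shown as the regulatory context of these changes, and no readout of regulation was measured. Each is the 250 bases before the annotated start in RefSeq (GRCm38.p6), 5′ to 3′ on the strand of the gene. *Sema7a* (ENSMUSG00000038264) lies on chromosome 9 at 57940112 to 57962865, plus strand, and its window is chr9:57939862-57940111. *Plxna3* (ENSMUSG00000031398) lies on chromosome X at 74329066 to 74344689, plus strand, with the window chrX:74328816-74329065. *Unc5b* (ENSMUSG00000020099) lies on chromosome 10 at 60762593 to 60831581, minus strand, with the window chr10:60831582-60831831. Capitals mark matches, on either strand and with no overlap between motifs, to 4 short motifs. The motif of the GATA family of zinc-finger factors was searched as GATAA. An E-box, a site for basic helix-loop-helix proteins, was searched as CAGCTG. The GC box that general factors such as Sp1 recognise was searched as GGGCGG. The box found near the start of a minority of genes was searched as TATAAA.
Sema7a: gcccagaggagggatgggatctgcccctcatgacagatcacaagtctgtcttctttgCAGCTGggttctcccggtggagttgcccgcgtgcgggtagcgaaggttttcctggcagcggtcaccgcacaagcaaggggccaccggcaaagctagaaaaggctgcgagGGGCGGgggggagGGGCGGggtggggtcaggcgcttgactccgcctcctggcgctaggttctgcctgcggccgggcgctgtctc
Plxna3: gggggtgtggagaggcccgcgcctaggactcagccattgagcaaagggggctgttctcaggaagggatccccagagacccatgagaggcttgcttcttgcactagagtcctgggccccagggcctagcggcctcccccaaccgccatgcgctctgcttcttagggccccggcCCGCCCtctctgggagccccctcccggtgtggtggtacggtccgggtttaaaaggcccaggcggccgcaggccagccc
Unc5b: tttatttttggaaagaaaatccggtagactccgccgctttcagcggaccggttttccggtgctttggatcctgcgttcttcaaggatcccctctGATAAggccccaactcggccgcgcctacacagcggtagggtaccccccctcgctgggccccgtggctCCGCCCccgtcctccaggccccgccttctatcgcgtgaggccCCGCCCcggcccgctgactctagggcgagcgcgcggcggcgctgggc
The *Sema7a* window held 2 GC boxes and 1 E-box, the *Plxna3* window 1 GC box and the *Unc5b* window 2 GC boxes and 1 GATA-factor motif. None of the 3 held the last of the motifs. Among 32851 windows of the same length over all genes, the GC box was in 32.7%, the GATA-factor motif in 22.6%, the E-box in 13.0% and the last of the motifs in 12.4%. Their GC contents were 66.4%, 68.0% and 66.8%, against a median of 52.4% over all windows and 64.6% over the 42 windows of 32 members.

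The neuropilins, co-receptors for class 3 semaphorins, were called in different comparisons of ages, and no single comparison called both. *Nrp2* rose from 2.45, 4.83 and 1.44 TPM at E15.5 to 16.5, 12.5 and 12.5 at P1, without overlap, by 1.92 ± 0.46 (limma-voom, adjusted p = 0.015). The rise was 2.74 without E15.5 replicate 2, and it was not called without E15.5 replicate 3 (1.21, adjusted p = 0.09) or P1 replicate 1 (1.66, adjusted p = 0.051). The mean level of *Nrp2* went from 6.25% to 29.7% of that in HCs between these ages, while the HC marker sum of the same SGN libraries went from 1.52% to 8.27% of the HC level, and the part of HC RNA in the rise was not tested. *Nrp2* then stood at 12.6, 14.9 and 7.28 TPM at P8 and 5.38, 8.21 and 2.51 at P30. *Nrp1* gave 64.3% ± 21.5 of summed neuropilin TPM at E15.5, and fell by 2.51 ± 0.91 from E15.5 to P30 (adjusted p = 0.037), from 2.08, 6.99 and 10.4 TPM to 3.04, 0.579 and 0.243. The ranges overlapped, the fall was 3.80 without P30 replicate 1, and the call was lost without E15.5 replicate 2 or 3 or P30 replicate 2 or 3 (adjusted p from 0.081 to 0.13).

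Of the netrin receptors, *Dcc* and *Unc5b* fell from E15.5 to P30, and *Unc5c* was not called (-0.67 ± 0.26, limma-voom adjusted p = 0.045, under the 2-fold limit). *Dcc*, *Unc5b* and *Unc5c* summed to 97.5 ± 52.4 TPM at E15.5 and to 16 ± 2.79 at P30. The share of *Unc5b* in this sum went from 58.9% ± 2 to 12.8% ± 1.69, and that of *Unc5c* from 23.8% to 72.9% ± 5.16. The Unc5 receptor genes *Unc5a* and *Unc5d* lie outside the members and were not part of the sum. From E15.5 to P30, mean *Unc5a* went from 0.588 to 12.9 TPM and mean *Unc5d* from 35.4 to 18.8 TPM. *Unc5b*, a receptor for repulsion by netrin, held 57.3, 25.9 and 89.9 TPM at E15.5, 30.6, 15.7 and 26.7 at P1, 8.01, 11.5 and 4.4 at P8, 8.75, 1.73 and 5.95 at P14, and 2.28, 2.27 and 1.59 at P30. Every library from P8 on lay below every library at E15.5 and P1. *Unc5b* fell by 1.59 ± 0.24 to P1 (limma-voom, adjusted p = 0.00073), by 1.25 ± 0.29 from P1 to P8 (adjusted p = 0.01) and by 4.47 ± 0.41 from E15.5 to P30 (adjusted p = 4.8e-07). The P1 to P8 step was not called without P1 replicate 1 (-0.96, adjusted p = 0.073), and neither single step was called on the TPM scale (adjusted p = 0.22 and 0.12).

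*Dcc*, the receptor for attraction to netrin, was not called from E15.5 to P1 (-0.48 ± 0.27, adjusted p = 0.26) and fell after it. Its libraries held 22, 7.97 and 17.1 TPM at E15.5, 14.1, 10.8 and 19.3 at P1, 5.81, 4.8 and 3.47 at P8, and 1.11, 2.89 and 2.79 at P30. It fell by 1.21 ± 0.31 from P1 to P8 (limma-voom, adjusted p = 0.017) and by 2.73 ± 0.39 from E15.5 to P30 (adjusted p = 4.7e-05). The P1 to P8 call was lost without P1 replicate 1 (adjusted p = 0.068) or P8 replicate 2 (0.099), and on the TPM scale (0.11). *Unc5c* fell by 1.17 ± 0.26 from E15.5 to P1 (adjusted p = 0.0094), from 21.6, 9.7 and 41.2 TPM to 11.7, 9.56 and 19.6, and by 0.85, under the 2-fold limit, without E15.5 replicate 3. It stood at 12.1, 13.9 and 9.2 TPM at P30. *Ntn1* itself was at or under 0.631 TPM in SGN libraries other than P1 replicate 1 (2.96) and P14 replicate 1 (4.6).

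Of the Slits, secreted repellents, *Slit3* had a peak at P8. It held 0.375, 1.18 and 0.505 TPM at E15.5, 1.98, 3.6 and 3.51 at P1, 13.3, 12.6 and 6.83 at P8, 9.89, 6.33 and 7.7 at P14, and 2.75, 2.48 and 1.4 at P30. The P1 and P8 libraries did not overlap, and the rise between them was 2.32 ± 0.41 (limma-voom, adjusted p = 0.0015; 1.86 and 0.083 on the TPM scale). The mean level in P8 SGNs was 52.9% of that in glial cells, and the glial marker sum in the same libraries was 15.7% of the glial level. What glial RNA gave to the *Slit3* rise was not tested. *Slit3* was still 1.95 ± 0.75 above E15.5 at P30 (adjusted p = 0.047), a call that was lost without E15.5 replicate 1 or 3 or any 1 of the P30 libraries (adjusted p from 0.057 to 0.17). *Slit1* and *Slit2* were not called at any age. *Slit1* varied widely within an age, with 7.59, 0.213 and 0.65 TPM at P30.

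*Robo1* was the larger of the Slit receptors, with 22.8, 14.4 and 37.3 TPM at E15.5, 51.5, 33.9 and 40.3 at P1, and 14.9, 12.2 and 11 at P30. It was called across the 5 ages (limma-voom, adjusted p = 0.013), by a span of 1.06 between its highest and lowest age, and the span was 0.81 and 0.93, under the 2-fold limit, without P1 replicate 1 or P30 replicate 2. *Robo2* ran from 1.48 to 13.6 TPM and was not called.

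Among the ephrin-As, which bind EphA receptors, *Efna3* had the largest fall of the members. Its libraries held 16.6, 5.14 and 17.1 TPM at E15.5, 4.05, 4.78 and 2.93 at P1, 1.27, 1.64 and 0.404 at P8, 1.6, 0.0352 and 0.106 at P14, and 0.129, 0.0739 and 0.078 at P30. The libraries at each age up to P8 lay below all those of the age before. *Efna3* fell by 2.00 ± 0.47 to P1 (limma-voom, adjusted p = 0.013; -1.42 and 0.25 on the TPM scale) and by 6.56 ± 1.05 from E15.5 to P30 (adjusted p = 0.00013), where the P30 libraries held 2 to 8 counts each. *Efna2* fell by 4.21 ± 1.44 (adjusted p = 0.027), from 4.47, 3.02 and 7.43 TPM at E15.5 to 4.75, 0 and 0.0446 at P30. That value rested on single libraries: it was -6.96 without P30 replicate 1, and not called without E15.5 replicate 3 (adjusted p = 0.052), P30 replicate 2 (0.16) or P30 replicate 3 (0.12). *Efna5*, the most abundant ephrin-A at P1 with 28.3, 24.3 and 25.9 TPM, stood at 4.23, 13 and 3.99 at E15.5. It was called across the 5 ages (adjusted p = 0.017), though not without P1 replicate 1 (0.06) or 2 (0.054). *Efna1* was not called, and *Efna4* stayed at or under 4.36 TPM in SGNs. *Efna1*, *Efna3* and *Efna4* lie side by side on chromosome 3 (GRCm38, 89271733 to 89338028, all on the minus strand), a span of 66.3 kb with no other protein-coding gene.

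**Figure D3:**
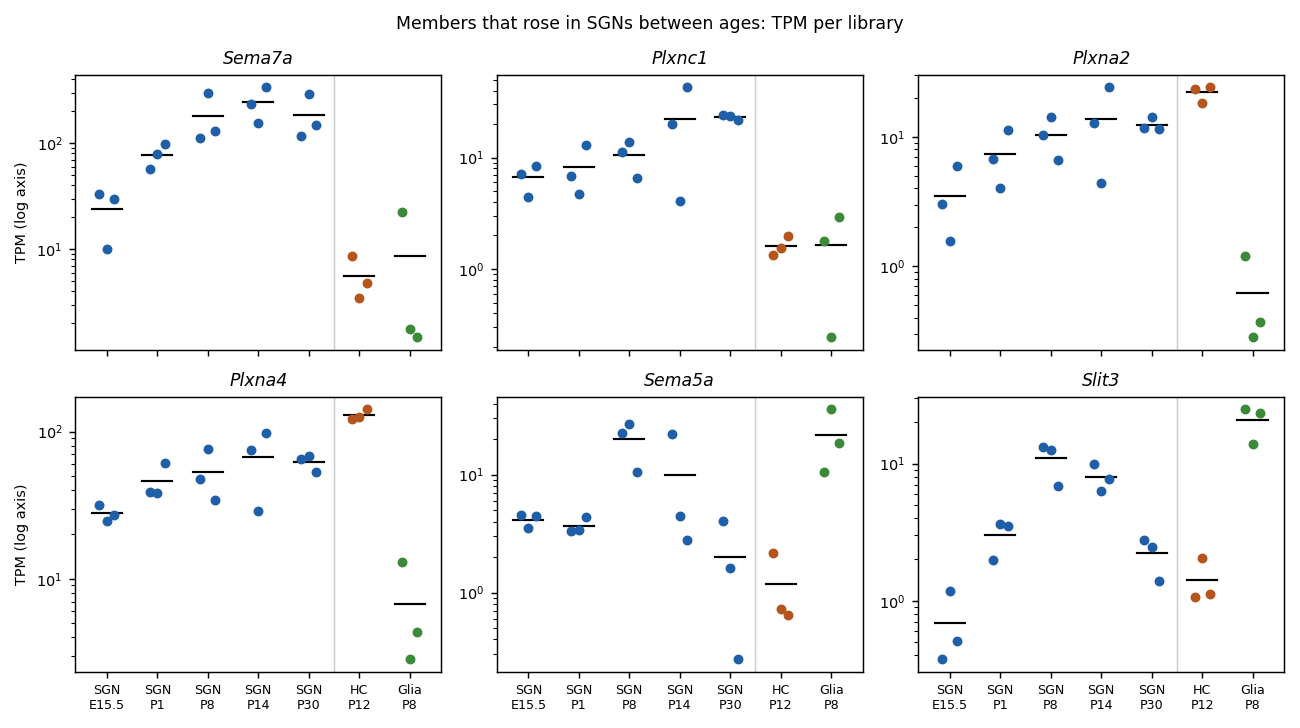
TPM per library (y axis, log scale) of 6 members that rose in SGNs between ages, by group (x axis); dots are libraries and black lines are means of 3. Sema7a rises from 9.92 to 32.8 TPM at E15.5 to 111 to 294 at P8, and Sema5a and Slit3 are highest at P8 among SGN ages.

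Between P8 and P14, 5 members had an unadjusted p under 0.05, beside 11.5% of all genes, and between P14 and P30, 6 had, beside 6.55% of all genes. None of these were called by limma-voom or by edgeR, and DESeq2 called 0 and 1. The median change of the members was -0.37 from P8 to P14 and -0.16 from P14 to P30, against -0.02 and -0.01 over all genes.

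**Figure D4:**
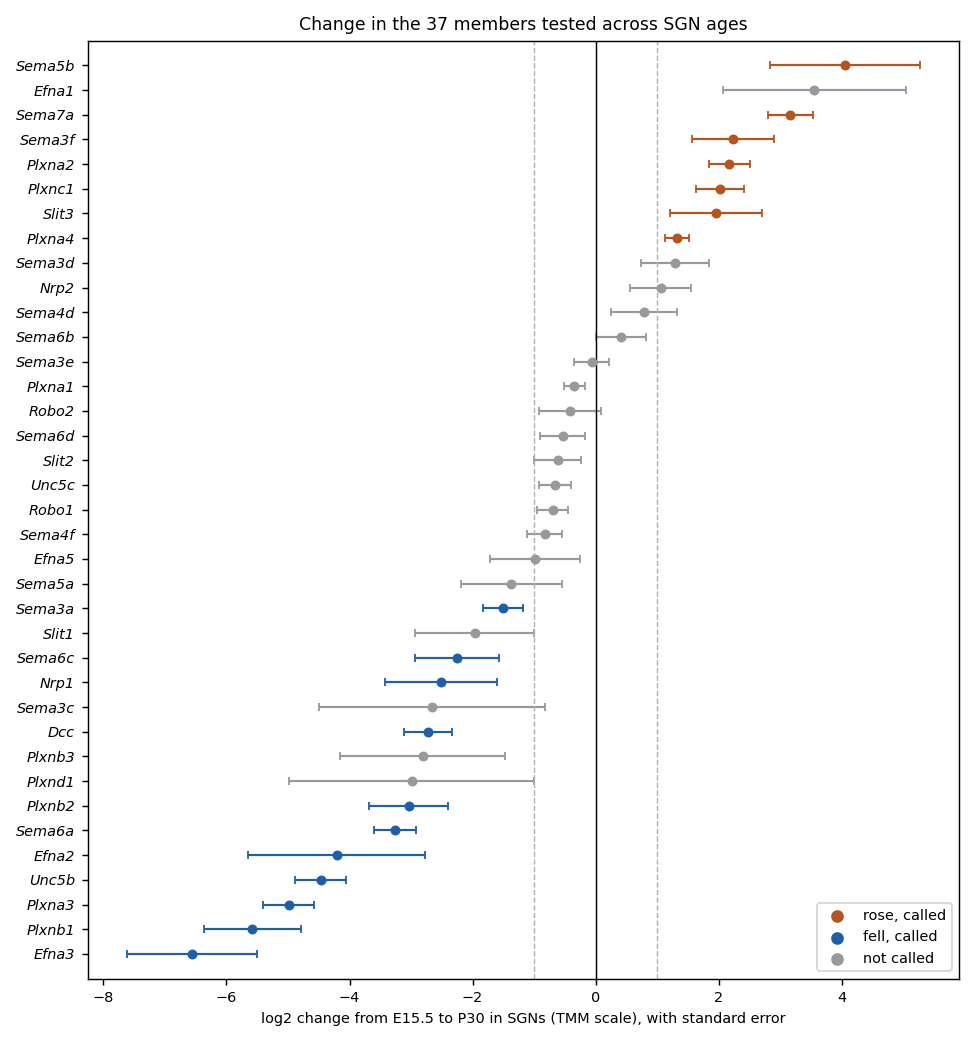
Log2 change from E15.5 to P30 in SGNs (x axis, limma-voom on TMM-scaled counts; dots are estimates, bars are SE) of the 37 members tested, sorted; dashed lines mark 2-fold. The values run from -6.56 for Efna3 to 4.04 for Sema5b, with the wide bars on members of low counts.

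Against HCs, a mixture of vestibular HCs and of the cochlear HCs that SGN peripheral processes reach, SGNs of all ages formed 1 side. No SGN library was taken at P12. HC libraries also differed in Cre line, tamoxifen, cells per library and supporting-cell markers, and, per the study's methods, in sorting. Cell type cannot be told apart from these in this design. Of 38 members tested, 14 were higher and 2 lower in SGNs, against 10.5% and 16.2% of all genes. This split moved with the scaling: it was 6 higher and 10 lower on the TPM scale, whose scale factors differed from those of TMM by a mean of -1.29 (log2), and 10 higher and 4 lower by library size only. The 8 members called in the same direction on both the TMM and the TPM scale were *Dcc*, *Nrp1*, *Sema7a*, *Unc5c*, *Plxnc1* and *Slit2*, higher in SGNs, and *Sema6d* and *Plxnb3*, higher in HCs. *Dcc* was at 0, 0.252 and 0.206 TPM in HCs, below all 15 SGN libraries (lowest 1.11), a difference of 7.20 ± 0.96 (limma-voom, adjusted p = 2e-06; 5.90 without HC replicate 1). *Nrp1* was at 0.0413, 0.032 and 0.0925 TPM in HCs, from 2 to 6 counts, and at 0.243 or more in SGNs, a difference of 6.55 ± 1.38 (adjusted p = 0.00043). *Sema7a* held 8.52, 3.46 and 4.8 TPM in HCs and 9.92 to 338 in SGNs, a difference of 5.57 ± 0.90 (adjusted p = 2.3e-05), and its receptor *Plxnc1* differed in the same direction (4.06 ± 0.76, adjusted p = 0.00013).

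*Sema6d* had the highest level of the 14 semaphorins in HCs. It held 179, 180 and 207 TPM in HCs, 61.8, 62.7 and 45.1 in glial cells and 2.31 to 14.3 in SGNs, without overlap, and was 3.31 ± 0.17 lower on the log2 scale in SGNs than in HCs (limma-voom, adjusted p = 1.3e-12). *Plxnb3* held 17.6, 9.05 and 11.2 TPM in HCs, with a difference of -2.79 ± 0.58 (adjusted p = 0.00037). *Plxna1*, a receptor of Sema6d, held 16.3, 25.5 and 17.4 TPM in HCs and was 2.61 ± 0.21 higher in SGNs (adjusted p = 1.4e-09), but 1.30 and under the 4-fold limit on the TPM scale. For *Plxna4* the scale set the size of the difference: its HC libraries (121, 125 and 142 TPM) lay above every SGN library (24.5 to 98), yet the difference was -0.17 ± 0.16 on the TMM scale and -1.49 on the TPM scale.

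A further 8 members were higher in SGNs on the TMM scale only: *Sema3d*, *Sema3f*, *Sema5a*, *Sema6c*, *Plxna1*, *Slit3*, *Robo2* and *Unc5b*. On the TPM scale only, *Sema5b*, *Sema6b*, *Plxna3*, *Plxnb1*, *Plxnb2*, *Nrp2*, *Ntn1* and *Efna1* were lower in SGNs. Calls for *Sema3d*, *Sema3f*, *Sema6c* and *Unc5b* were lost without any 1 of the HC libraries (adjusted p from 0.01 to 0.03), and that for *Slit3* without HC replicate 1 (0.014) or 3 (0.023). Those for *Sema6c* and *Unc5b* were also lost with only P8 and P14 SGNs in the contrast. The mean TPM of *Unc5b* in SGNs was 1360% of the HC level at E15.5 and 48.3% at P30. *Sema5a* was lost in 15 of the fits that left out 1 library (adjusted p from 0.011 to 0.049). *Unc5c* differed by 4.44 ± 0.57, *Slit2* by 3.70 ± 0.73 and *Robo2* by 3.34 ± 0.74 on the TMM scale. HC markers in SGN libraries came to 1.52% of the HC level at E15.5 and at most a mean of 8.27%, at P1. None of the 4 ephrin-As tested was called against HCs on the TMM scale, *Efna1* was lower in SGNs on the TPM scale (-2.77, adjusted p = 0.0086), and *Efna3* varied within HCs (0.249, 0.257 and 3.84 TPM).

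Against glial cells, which wrap the SGNs, the members split more evenly. Of 38 tested, 14 were higher and 9 lower in SGNs, against 14.3% and 10.4% of all genes. This comparison uses the same SGN libraries as the one with HCs. Glial cells also came from another Cre line and after tamoxifen, which cannot be told apart from cell type. At P8, the one age shared by both cell types, 13 were higher and 7 lower (13.4% and 7.53% of all genes). Of the 9 plexins, *Plxna2*, *Plxna4* and *Plxnc1* were higher in SGNs, and *Plxnb1*, *Plxnb3* and *Plxnd1* in glial cells, in both comparisons, and *Plxnb2* was higher in glia at P8 (2.50 ± 0.52 lower on the log2 scale in SGNs, limma-voom adjusted p = 0.00065; 1.84 and not called without P8 SGN replicate 2). *Plxna1* (1.04 ± 0.18 higher in P8 SGNs, adjusted p = 8.2e-05) and *Plxna3* (-1.73 ± 0.35, adjusted p = 0.00055) missed only the fold threshold at P8, and neither was called in either comparison. *Plxnb1* held 27.7, 27.5 and 28.4 TPM in glial cells, and its mean in SGNs, on the TPM scale, was 125% of the glial level at E15.5, 89.1% at P1, 20% at P8 and 2.67% at P30. *Plxnd1*, the receptor of Sema3e, held 53.7, 30.3 and 46.2 TPM in glial cells, all above the SGN libraries, and was 5.02 ± 0.51 lower on the log2 scale in SGNs (adjusted p = 7e-08). The glial libraries also held 271 to 421 TPM of connective-tissue markers (2.54 to 177 in SGNs), 18.3 to 58.7 of endothelial and pericyte markers (0.265 to 110 in SGNs) and 0.724 to 54.3 of macrophage markers (0.415 to 11.9 in SGNs), and what those cells gave to the *Plxnd1* level was not tested. The ligand of plexin-D1, *Sema3e*, was on the other side: 4.64, 1.82 and 0.274 TPM in glial cells and 13.3 to 106 in SGNs, a difference of 4.34 ± 0.71 (adjusted p = 3.6e-05; 5.43 without glia replicate 1 and 3.39 without glia replicate 3). *Plxnb3* held 36.6, 51 and 24 TPM in glial cells and was 6.06 ± 0.45 lower on the log2 scale in SGNs (adjusted p = 6.2e-10).

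*Sema3a*, *Sema4f* and *Sema7a* were also higher in SGNs than in glial cells. *Sema7a* held 22.5, 1.77 and 1.48 TPM in glial cells. The high value was in glia replicate 1, the library with 416 TPM of SGN markers, and the difference of 3.94 ± 0.79 (limma-voom, adjusted p = 0.00035) was 5.51 without it. *Sema3a* differed by 4.44 ± 0.81, and by 5.23 without that library. *Sema4f* differed by 4.65 ± 0.67. *Plxna2* and *Plxna4* differed by 3.42 ± 0.60 and 2.58 ± 0.33, and by 4.18 and 3.35 without glia replicate 1. *Plxnc1* differed by 2.92 ± 0.70, and by 2.03 without glia replicate 2, and its call at P8 was lost without glia replicate 1 (adjusted p = 0.012) or 2 (0.019). *Dcc* was at 0.229, 0.169 and 0.0263 TPM in glial cells, below every SGN library, and differed by 5.22 ± 0.90 (adjusted p = 6.6e-05; 4.42 without glia replicate 3). *Efna3* was represented by 2 counts in the 3 glial libraries together. Over all SGN ages this gave an SGN to glia ratio of 106, with a 95% counting interval of 29.2 to 872. At P8 the *Efna3* ratio was 36.2 (9.86 to 302), and its call was lost without glia replicate 2 or 3 (limma-voom, adjusted p = 0.015 for each). For *Efna1*, called at P8 only, 4 counts in glial cells gave a ratio of 37.9 (14.7 to 140) at that age. These intervals cover counting error only. They take each count as 1 event, and would be too narrow if read pairs were counted by their ends.

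Glial cells also exceeded SGNs in several ligands. *Ntn1* held 3.87, 6.31 and 7.51 TPM in glial cells, 4.65 ± 0.66 above SGNs on the log2 scale (limma-voom, adjusted p = 7.6e-06), and no SGN library other than P14 replicate 1 reached the lowest glial value. *Sema6d* was 3.24 ± 0.19 lower on the log2 scale in SGNs (adjusted p = 1.7e-11) and *Slit3*, at 24.9, 13.8 and 23.2 TPM in glial cells, 3.04 ± 0.27 lower (adjusted p = 1.2e-08). At P8 the *Slit3* difference was -1.28 ± 0.30, under the 4-fold limit. *Sema5a* was lower in SGNs over all ages (-2.23 ± 0.40, adjusted p = 0.0001), under the limit without glia replicate 2 (-1.77), and at P8 its difference was -0.25 ± 0.42 (adjusted p = 0.66). *Efna2* was 3.03 ± 0.67 lower on the log2 scale in SGNs over all ages, and its call at P8 was lost without any 1 of the P8 SGN libraries or glia replicate 1 or 2 (adjusted p from 0.013 to 0.044).

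**Figure D5:**
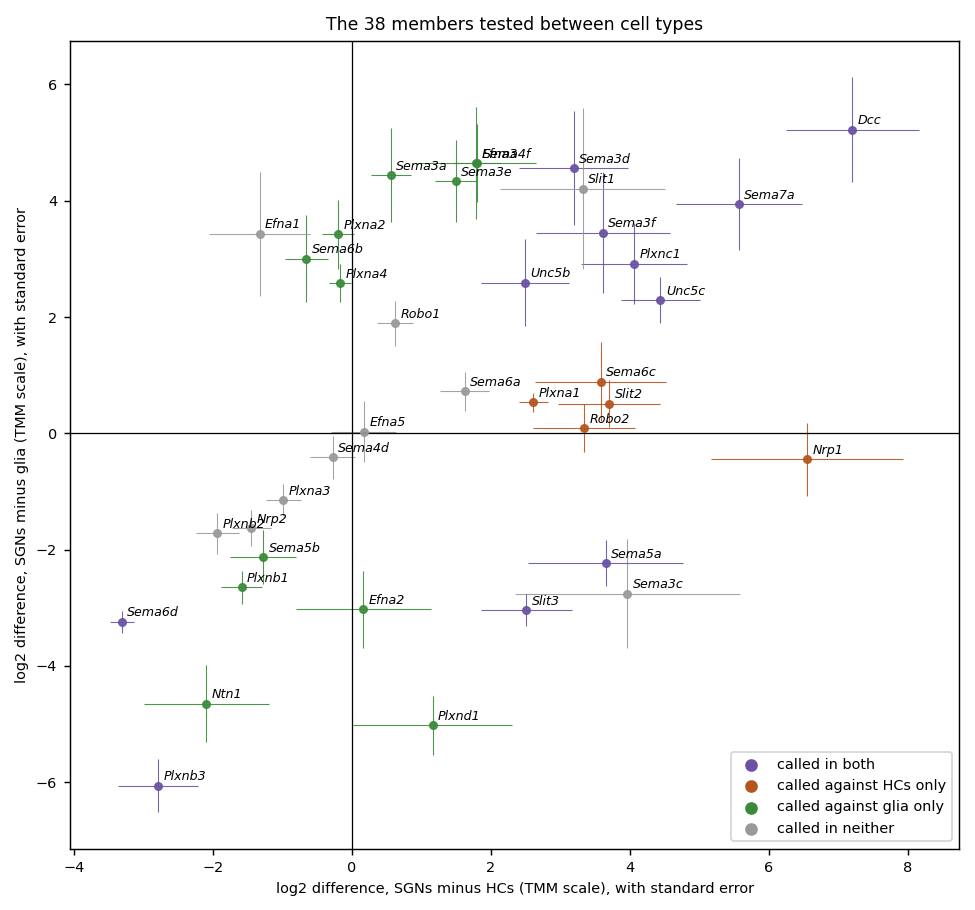
Log2 difference of SGNs from HCs (x axis) and from glial cells (y axis) for the 38 members tested (limma-voom on TMM-scaled counts; dots are estimates, bars are SE); both axes share the SGN libraries. Dcc (7.20 and 5.22) and Sema7a (5.57 and 3.94) lie to the upper right, and Sema6d (-3.31 and -3.24) and Plxnb3 (-2.79 and -6.06) to the lower left.

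Most of the remaining calls against glial cells were lost in some fits that left out 1 library. With sample quality weights, all of these remaining calls were lost over all SGN ages. So were those of *Sema3a*, *Sema7a*, *Plxna2*, *Plxnc1*, *Dcc*, *Efna2* and *Efna3*. *Sema3d* and *Sema6b* were higher in SGNs by 4.56 ± 0.98 and 3.00 ± 0.75, by 6.44 and 4.31 without glia replicate 1, and not called without glia replicate 2 (limma-voom, adjusted p = 0.017 and 0.025) or 3 (0.016 and 0.026). *Sema3f* differed by 3.45 ± 1.04, and its call was lost in 9 of the fits without 1 library (adjusted p from 0.01 to 0.084). *Unc5b* differed by 2.59 ± 0.75, 1.27 without glia replicate 3 (adjusted p = 0.036) and 3.06 without glia replicate 1 (0.018), and *Unc5c* by 2.29 ± 0.40. Neither was called at P8. *Sema5b* differed by -2.13 ± 0.47, lower in SGNs, and not called without E15.5 replicate 1 or 3, P14 replicate 2 or glia replicate 2 (values from -1.98 to -1.82).

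Other genes of the same pathways were counted from lists drawn up by their role. Of 23 further guidance ligands and receptors, 19 were tested across ages, and 1 rose and 7 fell from E15.5 to P30, where 18.4% of all genes rose and 16.2% fell. *Unc5a*, another repulsive netrin receptor, was the one that rose, from 0.588 TPM at E15.5 to 8.27 at P1 and 12.9 at P30 (4.95 ± 0.87, limma-voom adjusted p = 0.00031), opposite to *Unc5b*. *Draxin*, a secreted netrin-binding repellent, fell by 3.68 ± 0.84 by P1 (adjusted p = 0.011), from 11.2 to 1.36 TPM. *Sema3b*, a class 3 semaphorin, rose by 3.62 ± 0.52 from P1 to P8 and fell by 1.79 ± 0.40 from P8 to P14 (adjusted p = 0.048), with means of 2, 16.1 and 5.86 TPM. Its mean in glial cells was 100 TPM, and the part of glial RNA in the level of P8 SGNs, which held 15.7% of the glial marker sum, was not tested.

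Of the EphA receptors, through which ephrin-As act, 5 of 8 tested fell from E15.5 to P30 and 0 rose, where 16.2% of all genes fell and 18.4% rose. *Epha3* fell by 5.88 ± 1.37 (limma-voom, adjusted p = 0.0028), from 5.48 to 0.153 TPM. *Epha8* and *Epha10* averaged 4.26 and 7.13 TPM over SGNs, 0.0143 and 0.00723 in HCs, and 0.0567 and 0.137 in glial cells. *Epha1* was the reverse, at 71.7 TPM in HCs and 1.76 in SGNs (-4.78 ± 0.38). Of 46 intracellular effectors of these receptors, 43 were tested across ages, and 5 rose and 11 fell from E15.5 to P30, or 37.2%, beside the same 18.4% and 16.2% of all genes. *Farp1*, an exchange factor that binds A-type plexins, fell by 1.99 ± 0.21 from P1 to P8, from 45.4 to 8.94 TPM. *Dpysl5* and *Dpysl3*, collapsin response mediators, fell by 1.70 ± 0.30 from P1 to P8 and by 1.17 ± 0.15 from P8 to P14. *Ablim1*, an actin-binding protein, rose by 1.79 ± 0.23 by P1, from 12.1 to 60.4 TPM, and *Limk1*, a kinase of the actin regulator cofilin, by 1.53 ± 0.31 from E15.5 to P30.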

How the data were processed

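Counts per gene of 21 paired-end libraries were deposited by the authors as 1 table of 52550 Ensembl genes. RNA was isolated with the PicoPure kit, amplified with Ovation RNA-Seq V2 and made into libraries with Ovation Rapid DR. The submitters' processing notes name CASAVA, STAR 2.4.0i, featureCounts and the mm10 build. Strand, multi-mapping and pair settings are not given in the sources used here. A median of 67.9% of counts from 1 to 20 were even, so pairs may have been counted by ends, and halving all counts was tried. Without a known strand setting, reads cannot be told apart between a member and an overlapping gene: 8 of the 39 members share exon bases with another gene, 3 of them over 10% (*Plxna1*, *Efna3* and *Efna4*). Amplified reads carry no molecular identifiers, so depth and counting intervals cover counting error only.

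Symbols and positions came from GENCODE M21 (GRCm38), which matched 52403 of the 52550 genes. The members and lists were chosen with earlier results of these data known. All 39 members are named, and of 79 other pathway genes (78 matched), for each comparison up to 2 rises and 2 falls with the largest change among called genes that passed CPM over 10 in each replicate of a group. TPM were computed from counts and merged exon length. A gene was kept where some group had CPM over 1 in each of its replicates. Differences were tested with limma-voom on TMM-scaled counts (R 4.3.3, limma 3.58.1, edgeR 4.0.16), with 15113 genes in the 15 SGN libraries for ages and 17531 genes in 21 libraries for cell types. Alternatives were edgeR's quasi-likelihood test, DESeq2 1.42.0, sample quality weights, library-size scaling, CPM over 10 or no filter, other sets of groups in the fit, a replicate block, halved counts and each library left out. Same-numbered libraries did not all deviate together (all 3 correlations over 0.1) between any 2 groups compared directly, so no block was used. P8 and P30, both in the test over all ages, were the one pair of groups that did (0.39, 0.18 and 0.16). Promoter windows came from RefSeq (GRCm38.p6) and matched 32 members. *Plxna4*, *Sema3f*, *Slit1*, *Ntn1* and *Plxna1* had no entry. Windows of members on chromosome 18 (*Dcc* and *Sema6a*) were left out, while the windows over all genes were not filtered by chromosome. Figures were drawn with matplotlib 3.10.9 in Python 3.11.15.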

Additional observations from a re-analysis of the deposited data

How the results depend on the processing

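Of 117 calls on members over the 9 comparisons, 50 held under every alternative, 67 were lost in at least 1, and 0 reversed. Sample quality weights lost 33, the TPM scale 32, edgeR 22, library size only 13, no filter 12, DESeq2 8 and halved counts 0. Counts of called members from E15.5 to P1 ran from 5 (without E15.5 replicate 3 or P1 replicate 2) to 12 when 1 library was left out, and the count was 3 on the TPM scale, against 9. From P1 to P8 it was 14 with sample quality weights and 4 on the TPM scale, against 8. From P14 to P30 it was 1 with DESeq2 and 2 with sample quality weights, against 0. Against HCs it ran from 10 (without HC replicate 1) to 17 when 1 library was left out. Against glial cells it was 10 with sample quality weights, against 23, and at P8 it was 13 with edgeR and 10 with sample quality weights, against 20. From E15.5 to P30 the count ran from 13 to 21 when 1 library was left out and from 14 to 21 under the other settings. The cause of these changes was not tested.

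The TPM scale and the fit without 4 libraries (E15.5 replicate 2, P1 replicate 1, P14 replicate 1 and glia replicate 1) were chosen after seeing the data. Without the 4 libraries 11 calls were lost, and 21 members were called from E15.5 to P30 (10 up, 11 down), 18 against HCs and 21 against glial cells. With the replicate number as a block, 6 calls were lost, and the counts were 1 from P14 to P30, 14 from E15.5 to P30 and 11 from P1 to P8. Of 6 libraries in a pair of ages, 2 correlated best with the one of their own number between E15.5 and P1, 3 between P1 and P8 and between P8 and P14, 5 between P14 and P30 and 6 between P8 and P30, a hint from the data and not from the design. Over all ages 24 members were called with the block, against 23. Low counts in *Efna3* at P30 (2 to 8 a library) and in *Nrp1* in HCs (2 to 6) limit how well those changes are sized.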
